A study of Mus musculus with 4 samples.

Results

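Bone marrow-derived macrophages (BMDMs) of wild-type mice were examined by ATAC-seq, in which a transposase cuts DNA where chromatin is open and the cut sites are read as peaks. The regions described here are those that had a peak in both libraries of cells given interleukin-4 (IL-4), had none in either control library, and lay more than 10 kb from the nearest transcription start site (TSS). There were 1058 such IL-4-only distal regions among 34438 distal regions of any kind and among 60710 regions in all. The series holds 4 libraries, 2 of control cells and 2 of cells given 20 ng/ml IL-4 for 1 h, all from bone marrow of mice aged 8 to 12 weeks grown for 6 days in L929 supernatant, the source of M-CSF. Labels number the libraries as replicates 1 and 2 of each group and the study's methods call them biological replicates. Which mouse each came from is not stated, so the spread between replicates may be partly technical.

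IL-4 acts through a receptor whose Janus kinases phosphorylate STAT6. Phosphorylated STAT6 forms a dimer, enters the nucleus and binds a palindrome in which TTC and GAA flank a spacer of 4 bases, whereas most other STAT proteins prefer a spacer of 3. In macrophages this pathway leads to alternative activation, a state known from helminth infection and tissue repair, and many of the enhancers it uses lie far from promoters. AP-1 and PU.1 are factors with well-known binding sites in macrophage enhancers.

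The regions were chosen by measured values, namely the presence and absence of peaks in the 4 libraries, so their presence and their heights are given as a description with no test. Peaks of all libraries overlapping by at least 1 bp were merged, and each region took the nearest gene and the TSS distance of its highest peak. A height is the peak score of the deposited files, which grows with sequencing depth and was read as the −log10 of the caller's q-value, although no source states whether p or q was meant. Only called peaks are listed, so a control signal below the caller's threshold is unknown. In a population of cells, fewer cells with an open site and less opening per cell cannot be told apart. Of all distal regions, 3.07% were IL-4-only, 4.75% were control-only (a peak in both controls and in neither IL-4 library) and 12364 were shared by all 4 libraries. Nothing is read from these shares, because the rule used that contrast.

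The libraries held 45250 and 41885 peaks in controls and 41978 and 39462 after IL-4, with median heights of 8.04, 7.46, 7.69 and 6.41. Read depth is unknown, since the files give no reads. A peak lay within 1 kb of the TSS of 4 of 7 macrophage markers (Cd68, Itgam, Mertk and Lyz2) in all 4 libraries, whereas Csf1r, Spi1 and Adgre1 had none in any library. Summed over those markers, the heights were 52.86 and 42.18 in controls and 40.35 and 49.19 after IL-4. No B cell or T cell marker had a peak. Of 4 neutrophil genes, S100a8 had a peak in every library, with heights of 6.63, 6.18, 6.62 and 2.49, whereas Ly6g, Mpo and Elane had none. Of 4 fibroblast genes, Pdgfra had a peak of 5.44 in control replicate 1 only, and Col1a1, Col1a2 and Dcn had none.

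The sequences that carry the main result are those around the STAT6 motif, TTCNNNNGAA, at the highest IL-4-only distal regions. They were read from the reference genome (RefSeq, GRCm38.p6, the assembly that mm10 denotes), plus strand, 5′ to 3′, with the motif in capitals and 20 bases on either side. The first 8 are those of the 15 highest members, ranked by the height in the weaker IL-4 library, that hold the motif within the 200 bp at their centre.
4930428G15Rik, chr9:115387460-115387509: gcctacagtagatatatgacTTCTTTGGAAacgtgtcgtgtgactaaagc
Hapln1, chr13:89257313-89257362: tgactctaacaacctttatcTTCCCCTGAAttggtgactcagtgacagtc
Hhat, chr1:192781379-192781428: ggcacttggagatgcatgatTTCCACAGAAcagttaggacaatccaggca
Tet2, chr3:133574978-133575027: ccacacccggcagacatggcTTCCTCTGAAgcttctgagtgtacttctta
Jak2, chr19:29239703-29239752: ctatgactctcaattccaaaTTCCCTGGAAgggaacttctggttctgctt
Spcs3, chr8:54487106-54487155: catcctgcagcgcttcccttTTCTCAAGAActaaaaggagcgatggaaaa
Ahr, chr12:35573905-35573954: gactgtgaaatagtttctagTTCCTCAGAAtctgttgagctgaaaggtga
Hnrpll, chr17:80026720-80026769: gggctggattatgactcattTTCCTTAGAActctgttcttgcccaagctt
The next sequences come from members near genes of alternative activation and of macrophage identity, shown because they place the same palindrome at loci known from IL-4-treated macrophages. They carry the names of the listed genes within 100 kb. Of the 31 members that near a listed gene, 14 held the motif, and those shown were picked from these 14.
Arg1, chr10:24952765-24952814: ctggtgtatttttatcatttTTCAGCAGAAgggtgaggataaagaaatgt
Mrc1, chr2:14323345-14323394: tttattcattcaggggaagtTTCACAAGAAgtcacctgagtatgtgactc
Pdcd1lg2, chr19:29478842-29478891: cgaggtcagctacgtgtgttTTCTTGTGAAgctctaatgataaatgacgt
Flt1, chr5:147539962-147540011: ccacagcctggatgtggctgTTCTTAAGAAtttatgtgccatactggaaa
Irf4, chr13:30865654-30865703: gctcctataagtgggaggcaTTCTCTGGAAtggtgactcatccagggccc
Kdm6b, chr11:69429564-69429613: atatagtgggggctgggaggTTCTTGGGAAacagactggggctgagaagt
Tfec, chr6:16846738-16846787: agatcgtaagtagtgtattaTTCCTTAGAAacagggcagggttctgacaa
Tfec, chr6:16884049-16884098: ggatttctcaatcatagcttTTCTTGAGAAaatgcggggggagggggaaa

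In the members as a whole, the STAT6 motif was the sequence feature that differed most from other distal regions among the 11 motifs read. The 200 bp window at the centre of the region held TTCNNNNGAA, a palindrome that reads alike on both strands, in 345 of 1058 members, or 32.6% (Wilson 95% interval 29.9 to 35.5). In the same window it was held by 37 of 1635 control-only distal regions (2.26%), 856 of 12364 shared distal regions (6.92%) and 6.35% of all regions. The share in members was higher by 30.3 percentage points than in control-only distal regions (Newcombe 95% interval 27.5 to 33.3) and by 25.7 points than in shared distal regions (22.9 to 28.6). IL-4-only regions within 10 kb of a TSS held it in 113 of 476 (23.7%), which was 8.87 points lower than the distal members (3.99 to 13.5). These intervals cover counting error over regions, which are not independent replicates. With 1 library left out, which admits 1749 to 4074 regions to the rule, the share was 17.0% to 24.3%, lowest without IL-4 replicate 1.

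Most motif-bearing members had 1 match. None was found in 713 members, 1 in 309, 2 in 35 and 3 in 1. The commonest spellings were TTCCAGAGAA with 23 of 382 matches, TTCCCAGGAA with 19 and TTCCTGAGAA with 16, so no single spelling made up the set. A stricter palindrome, TTCCNNGGAA, is of the same length, and each of its matches is also a STAT6 match. It was held by 57 members (5.39%), 0.122% of control-only and 0.510% of shared distal regions, and 0.710% of all regions.

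The motif lay close to the centre of the members. Of the 386 matches within 100 bp of the centre, 242 (62.7%) were within 50 bp, and their median distance was 36.5 bp. Members held 2.29 matches per kb within 50 bp of the centre and 0.359 per kb at 300 to 500 bp. Control-only distal regions had the reverse order, with 0.0917 and 0.286 per kb, and shared ones had 0.380 and 0.303. Windows of the same length 1000 bp to either side held the motif in 6.10% for members, 6.02% for control-only and 5.42% for shared distal regions, so the classes were close to each other there.

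**Figure D1:**
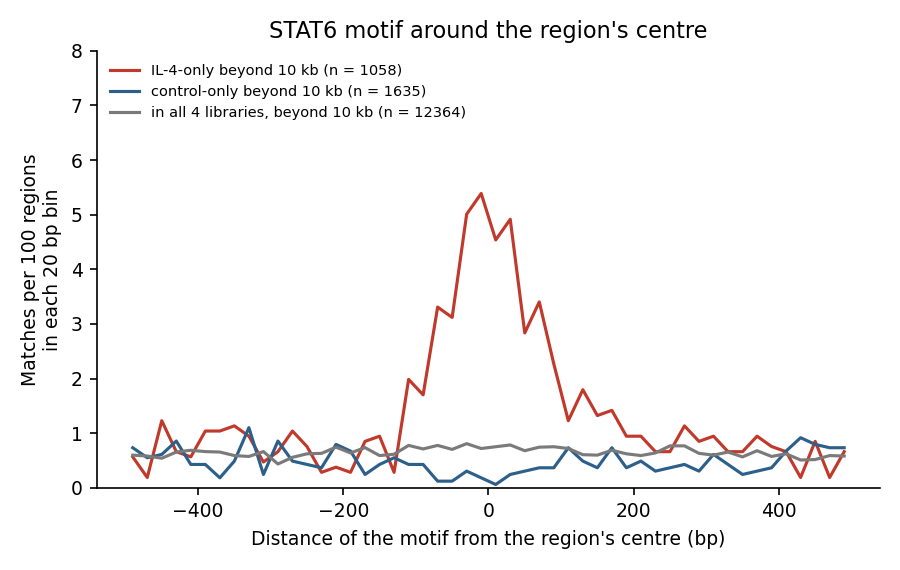
Matches to the STAT6 motif per 100 regions in each 20 bp bin (y axis) against distance from the region's centre in bp (x axis), for IL-4-only, control-only and shared regions beyond 10 kb. The IL-4-only line rises in the middle, to 2.29 matches per kb within 50 bp of the centre, whereas the control-only line dips there to 0.0917 per kb.

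The share of members with the motif was higher among higher regions. By the height in the weaker IL-4 library, it was 22.7% below 3, 29.3% from 3 to 5, 47.3% from 5 to 10, and 11 of 19 (57.9%) at 10 or more. In control-only distal regions the first 3 of these classes gave 3.42%, 2.32% and 1.25%, and in shared ones all 4 lay between 6.32% and 7.38%. The median weaker height was 4.37 in members with the motif and 3.73 in those without, and the median width was 211 bp against 170 bp. Distance from the TSS made little difference, with 31.1% at 10 to 20 kb, 34.8% at 20 to 50 kb, 31.8% at 50 to 100 kb and 31.7% beyond.

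Other motifs separated the members less. The 3-base-spacer palindrome TTCNNNGAA, bound by other STAT proteins, was in 143 members (13.5%) against 3.98% of control-only distal regions, a difference of 9.54 points (7.34 to 11.9), and 5.84% of all regions. Either palindrome was in 457 members (43.2%). The AP-1 motif TGANTCA went the other way, in 22.9% of members, 30.3% of control-only and 32.5% of shared distal regions, and 20.4% of all. Members were lower than control-only regions by 7.40 points (3.99 to 10.7). PU.1 (GAGGAAGT, on either strand as for each motif here) was in 10.0%, 10.4% and 13.3% of these 3 classes and 9.15% of all. The C/EBP motif TTGCNNAA was in 129 members (12.2%), 246 control-only distal regions and 10.7% of all regions, and RUNX (TGTGGTT) in 10.2%, 9.66% and 7.22%. NF-kB (GGGNNNTTCC) was in 4.25%, 2.75% and 3.89%, and IRF (GAAANNGAAA) in 4.25%, 2.81% and 3.15%. The E-box CACGTG was in 3.50%, 4.71% and 4.74%, EGR (GTGGGCG) in 0.945%, 1.10% and 3.70%, and CTCF (CCANNAGNNGGC) in 5.58%, 5.75% and 5.02%. Apart from the STAT palindromes, members thus differed from control-only regions by under 10 points for each motif. None of the 11 motifs was found in 261 members (24.7%).

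Some other motifs were more or less frequent in members with the STAT6 motif than in those without. AP-1 was in 26.7% of those with the STAT6 motif and 21.0% of those without, higher by 5.63 points (0.23 to 11.3). The NF-kB motif, whose TTCC can be the start of a STAT6 match, was in 6.38% and 3.23%, a difference of 3.15 points (0.51 to 6.42). CTCF was in 2.32% and 7.15%, lower by 4.83 points (2.08 to 7.25) in members with the STAT6 motif. The remaining motifs, apart from the 3-base-spacer palindrome (8.99% and 15.7%), differed by intervals that include 0.

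The presence rule draws on all 4 libraries, so the same sequence measure was taken in distal regions that are not members. Those with a peak in 1 IL-4 library alone still lack a control peak by definition, as members do. Their motif share is thus no independent check of that contrast. Distal regions with a peak in 1 library alone held the STAT6 motif in 122 of 3505 (3.48%) and 86 of 2552 (3.37%) for the controls, and in 372 of 2427 (15.3%) and 340 of 2953 (11.5%) for IL-4. Both IL-4 libraries were above both controls, by 10.0 points on average. The exact two-sided permutation test over the 4 libraries gave p = 0.33, the smallest that 2 against 2 allows. In these regions AP-1 averaged 22.3% in controls and 16.3% after IL-4, and the 3-base-spacer palindrome 5.17% and 8.28%.

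Over all distal peaks of a library, the motif share was 5.48% and 5.30% in controls and 9.25% and 9.11% after IL-4. The groups did not overlap and differed by 3.79 points (exact permutation p = 0.33, again the smallest possible). With the IL-4-only and control-only regions left out, the shares were 5.69% and 5.56% against 8.09% and 7.87%, a difference of 2.35 points. Regions found in only that library were still among these.

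**Figure D2:**
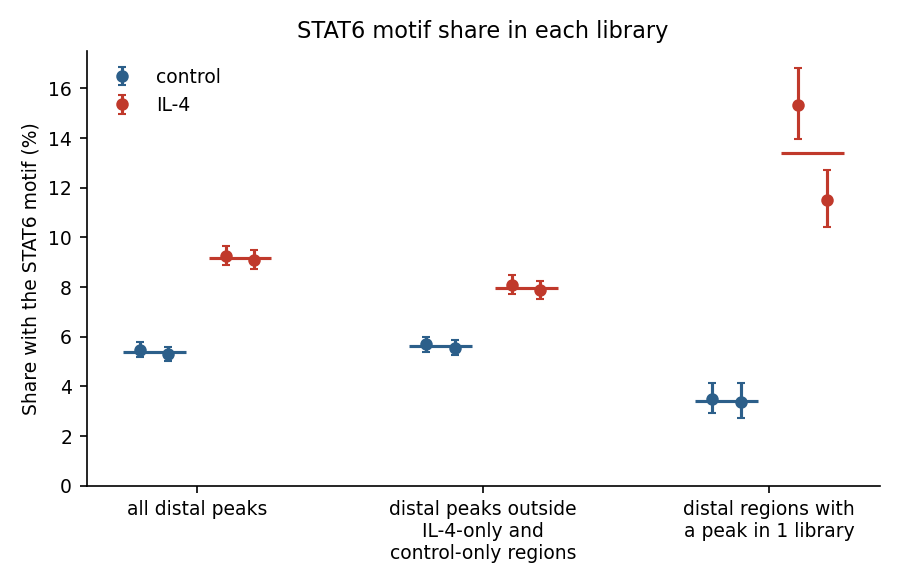
Percent of distal regions with the STAT6 motif (y axis) in each control and IL-4 library, for all distal peaks, for those outside the group-specific regions and for regions found in that library alone (x axis). Points are libraries with Wilson 95% intervals and lines are group means. Each IL-4 library is above each control library, with 15.3% and 11.5% against 3.48% and 3.37% in regions of 1 library.

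A measure that does not rest on the absence of a peak was the height of shared regions. In a limma fit over all 25442 regions with a peak in all 4 libraries, on quantile-normalised log2 heights, 6 regions (0.0236%) passed an adjusted p of 0.05, of which 4 rose (0.0157%). At an unadjusted p under 0.05, 4.12% were higher and 4.15% lower after IL-4. Of the 856 shared distal regions with the STAT6 motif, 2 rose and none fell by the adjusted p, and 156 (18.2%) were higher and 12 (1.40%) lower at the unadjusted one. Of the 11508 shared distal regions without it, none rose and 2 fell by the adjusted p, and 464 (4.03%) were higher and 661 (5.74%) lower. The comparison by motif was chosen after the data were seen. Without either IL-4 library, limma called 0 of the 25442 regions, with 752 and 640 higher and 1141 and 994 lower at the unadjusted p, and without control replicate 2 it called 12.

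The shift was a broad one and not large. The median log2 change was 0.32 with the motif (quartiles −0.07 and 0.74) and −0.05 without it, and 71.6% and 45.9% of regions were higher after IL-4. Their median log2 heights were 3.14 and 3.13 in the controls and 3.55 and 3.51 after IL-4. One of the 2 that rose, at chr3:133758400-133758827, had heights of 11.52 and 12.29 in controls and 38.98 and 24.24 after IL-4, a log2 change of 1.55 ± 0.30 (SE, n = 2 per group, limma adjusted p = 0.030). Its nearest gene was Tet2, and it lay 183203 bp from the Tet2 member. The other, nearest Tbc1d2b, went from 4.87 and 4.84 to 23.24 and 16.3, a change of 2.22 ± 0.45 (limma adjusted p = 0.037). Without the trend of variance on height, limma called 0 of the 25442 shared regions, these included, with a lowest adjusted p of 0.523 and with 1057 higher and 981 lower at an unadjusted p under 0.05.

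**Figure D3:**
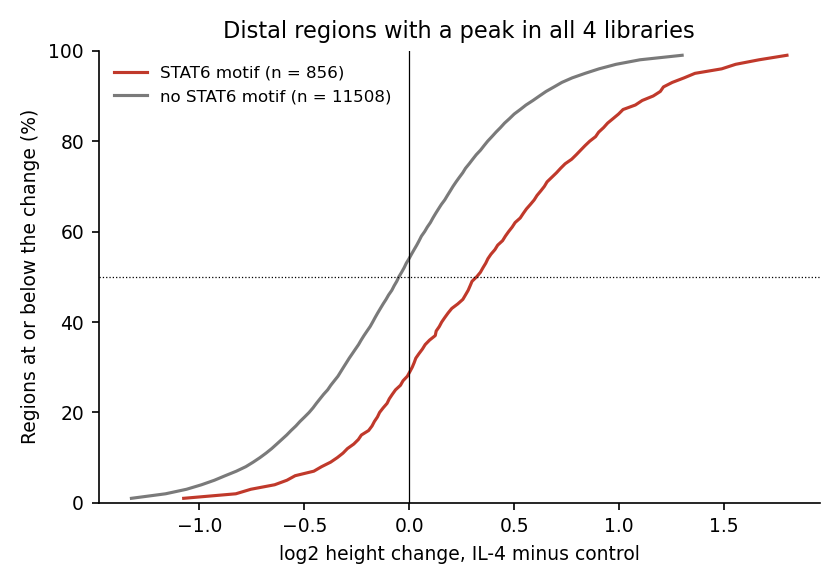
Percent of regions at or below each log2 height change after IL-4 (y axis against x axis) for regions beyond 10 kb that have a peak in all 4 libraries, with and without the STAT6 motif. The line with the motif lies to the right, with a median of 0.32 against −0.05.

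Shared regions lying within 10 kb of a member showed little of this shift in their median log2 change, which was 0.02. Of 467 such regions, limma called 0. At an unadjusted p under 0.05, 33 (7.07%) were higher and 20 (4.28%) lower, against 4.12% and 4.15% of all shared regions. One of the neighbours, 188 bp from a member and nearest Rgs1, a regulator of G protein signalling, had heights of 11.57 and 10.54 in controls and 20.55 and 24.1 after IL-4 (limma adjusted p = 0.241). Others were lower after IL-4, such as one 741 bp from a member and nearest Mir5130, with 25.92 and 21 in controls and 10.84 and 8.6 after IL-4 (limma adjusted p = 0.319). Within 50 kb of a member, limma called 1 of 2239 shared regions. It fell, lay 22248 bp from a member of Tcf4, and had heights of 35.59 and 35.07 in controls and 16.47 and 7.86 after IL-4 (log2 change −1.45 ± 0.29, SE, limma adjusted p = 0.030).

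The members were low peaks on the whole. The median height was 5.34 in IL-4 replicate 1 (range 1.64 to 22.22) and 4.475 in replicate 2 (1.35 to 15.89), and 19 members reached 10 in both. Replicate 1 was the higher in 716 members (67.7%), as it was in 69.7% of shared distal regions. Across members, the heights of the 2 libraries were loosely related (Pearson r 0.344, Spearman rho 0.289, as a description, against 0.688 and 0.681 across shared distal regions). The median width was 181.5 bp, against 293 bp for shared distal regions. A control peak lay within 1000 bp of 166 members.

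**Figure D4:**
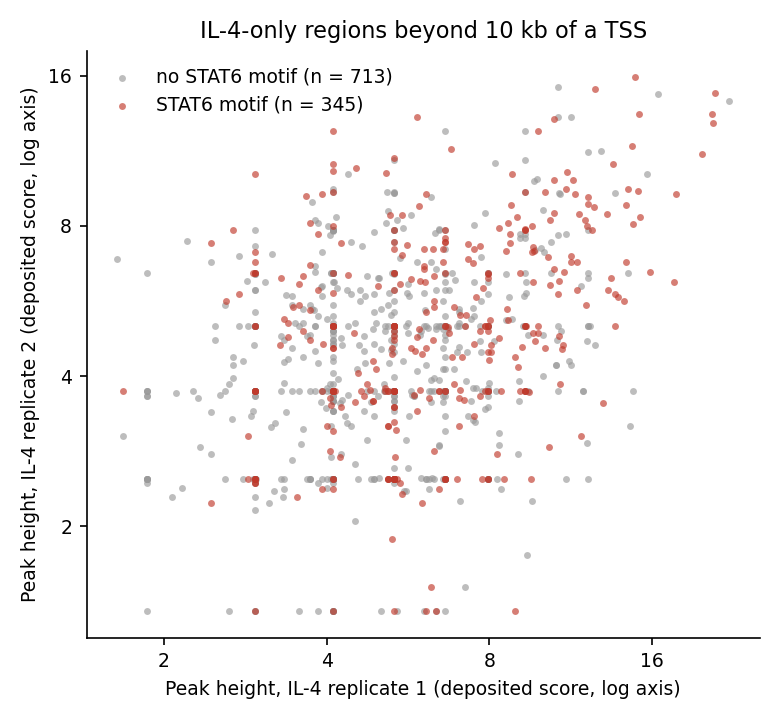
Height of each IL-4-only region beyond 10 kb in IL-4 replicate 1 (x axis) and replicate 2 (y axis), as peak score on log axes, with regions that hold the STAT6 motif marked. The bulk lies at low heights in both libraries, with medians of 5.34 and 4.475, and 11 of the 19 regions at 10 or more in both hold the motif.

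The members lay a median of 47344 bp from a TSS, with control-only distal regions at 37592 bp and shared ones at 38725 bp. The files placed 550 (52.0%) between genes, 478 (45.2%) in introns and 13 in exons. The motif was in 30.2% of the intergenic and 35.6% of the intronic members. The median GC content of the window was 46.5%, below the 51.25% of IL-4-only regions nearer a TSS, and 48.0% and 48.5% in control-only and shared distal regions. Near the distance limit, the closest members lay beside Macrod1 (10046 bp, heights 3.29 and 3.73), Epha2 (10055 bp, 5.34 and 2.49) and Rara (10103 bp, 12.13 and 2.93). Just inside 10 kb were regions at Eps8l3 (9986 bp, with heights of 2.95 and 2.49), Ang2 (9955 bp, 8.84 and 4.53) and Phactr1 (9935 bp, 9.13 and 2.49). The lowest members, beside Flrt1, Speer1-ps1 and Ube2e2, had a weaker height of 1.35.

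Of the 15 highest members, 8 held the STAT6 motif in the central window, and 10 in the window or the whole region. The highest was between genes, 51381 bp from the TSS of the RIKEN transcript 4930428G15Rik, with heights of 14.9 and 15.89. Next came a region assigned to Hapln1, which encodes a link protein of the extracellular matrix, with heights of 20.89 and 14.77. It lies in intron 9 of Edil3, whose product is also secreted. That these heights exceed the medians for the set in both IL-4 libraries follows from ranking by the weaker library.

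The member 12110 bp upstream of Jak2, the kinase that the IL-4 receptor formed with IL-13Rα1 can use, had heights of 20.71 and 12.9. A region assigned to Socs6, of the suppressor of cytokine signalling family, had 22.22 and 14.28, and its window did not hold the STAT6 motif. Another Socs6 member, with heights of 7.68 and 4.93, held the motif in its window. Tet2 encodes an enzyme that oxidises 5-methylcytosine, and its member 30614 bp upstream had heights of 15.15 and 13.4 and more than 1 match. The member 39016 bp upstream of Ahr, a ligand-activated transcription factor, had heights of 14.71 and 11.56.

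The rest of the 15 covered many functions. A member 10214 bp upstream of Hhat, which palmitoylates Hedgehog proteins, had heights of 20.63 and 13.45. One in intron 4 of Snx29, a sorting nexin, had 16.43 and 14.71, and a control peak lay 54 bp from it. Spcs3, a signal peptidase subunit, had a member with 12.54 and 15.03. Atg10, an autophagy conjugating enzyme, had one in intron 3 (11.31 and 13.26) with the 3-base-spacer palindrome, which the Zfp386 member (12.85 and 11.32) also held. A control peak lay 214 bp from the Atg10 member. Dhrs9, a short-chain dehydrogenase, had one at exon 2 (12.2 and 11.27), and Hnrpll, an RNA-binding splicing regulator, one with 19.78 and 11.18. The Peg10 member (10.74 and 13.21) held neither palindrome, and the Gm3763 member (10.74 and 15.17) lies in a ribosomal RNA repeat.

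The 1058 members had 929 nearest genes, or 9.66% of the 9613 genes with any distal region. Of these genes, 828 had 1 member, 80 had 2, 15 had 3 and 6 had 4 or more. The 21 genes with at least 3 were 2.26% of the genes with a member, and the same share for control-only distal regions was 30 of 1395 (2.15%). Another member lay within 50 kb of 13.7% of members, against 20.1% for control-only distal regions. The number of genes with at least 3 was 14 with peaks merged within 500 bp, and also 14 with no control peak within 1000 bp. It was 85 without control replicate 1, 48 without control replicate 2, 220 without IL-4 replicate 1 and 190 without IL-4 replicate 2, each of which admits more members. The motif share was 31.8% in members of genes with 1, 40% with 2 and 18 of 70 (25.7%) with 3 or more.

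Dock10, a guanine nucleotide exchange factor, had 4 members in its first 4 introns among 26 distal regions assigned to it. In the 2 IL-4 libraries their heights were 3.79 and 5.42, 7.99 and 4.3, 5.66 and 6.12, and 9.33 and 12.42. Ctsc, encoding the lysosomal protease cathepsin C, had 4 members over 123.525 kb, with heights of 11.81 and 6.07, 5.34 and 3.73, 4.93 and 4.13, and 2.68 and 3.96. Cblb, a ubiquitin ligase that restrains lymphocyte activation, had 3 members with heights of 15.64 and 10.18, 7.5 and 8.02, and 4.11 and 6.43. These loci had members of quite unequal height. The 4 members assigned to Mir1907 included 3 in introns of Trps1, a GATA-type repressor, and 1700064M15Rik had 3 of its 7 distal regions as members, 2 of them inside Foxn3. Rap2b, a small GTPase, Atp2b1, a plasma membrane calcium pump, Tcf4, a basic helix-loop-helix factor, and the non-coding Gm20125 had 3 each. The STAT6 motif was in the window of 1 of 4 members at Dock10 and Ctsc, and 2 of 4 at Mir1907. It was in 1 of 3 at Rap2b, Atp2b1 and Tcf4, 0 of 3 at Cblb and 1700064M15Rik, and all 3 at Gm20125. Over the 12 genes named for several members, 10 of 43 members held the motif in the window, and 16 in the window or the whole region. The Gm20125 members spanned 1137.688 kb among 29 distal regions assigned to that gene. Control-only distal regions numbered 2 each at Dock10, Mir1907 and Atp2b1, 1 each at Ctsc, Tcf4 and Gm20125, and 0 at Cblb, 1700064M15Rik and Rap2b. A control peak lay 26, 447 and 561 bp from 3 of the Mir1907 members, and 292 and 911 bp from 2 at 1700064M15Rik. Such a peak lay 441, 498 and 658 bp from 1 member each at Cblb, Tcf4 and Dock10.

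One group of 4 members lay with gaps of at most 50 kb, at chr10:67693677-67743114, between Egr2 and Zfp365. Egr2 is a zinc finger factor that takes part in macrophage alternative activation, and Ado, to which the files assigned most of these members, encodes a thiol dioxygenase. From the Egr2 gene (chr10:67534469-67542188) to Zfp365 there were 5 IL-4-only distal regions, 3 shared ones, 11 found in 1 library and no control-only one. Another 7 distal regions had other patterns of peaks. Within 10 kb of a TSS there were 1 shared region and 1 of another pattern. The 5 IL-4-only distal regions lay 86.8, 151.5, 160.7, 172.9 and 200.7 kb from Egr2. Their heights in the 2 IL-4 libraries were 11.21 and 4.29, 6.31 and 2.49, 4.38 and 10.17, 7.07 and 2.25, and 4.11 and 3.73. None of the 5 reached a height of 10 in both libraries. The STAT6 motif was in the window of the last and, away from the centre, in the first.

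In 2 of these groups, some or all members lie in repeated sequence. All 5 members of Gm20871 lie on chromosome Y in copies of an ERVB4_2-LTR_MM element. No 32-base word in them is unique in the genome, the median word having 31 to 34 copies, and all 5 had a height of 3.73 in IL-4 replicate 2. The 4 members assigned to Zfp386 lie inside the immunoglobulin heavy chain locus (chr12:113258768-116009954), which holds a large family of similar gene segments. A control peak lay 165 bp from the member at chr12:115257964-115258142. Of these 4, 2 were made mostly of repeated words (0% and 33.1% unique), and the other two were mostly unique (86.4% and 95.3%). Where reads match several copies, the placement of a peak is uncertain. Over all members, 53 (5.01%) were made mostly of repeated 32-base words, against 1.65% of control-only and 2.87% of shared distal regions. Without them, the STAT6 motif was in 33.7% of 1005 members.

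**Figure D5:**
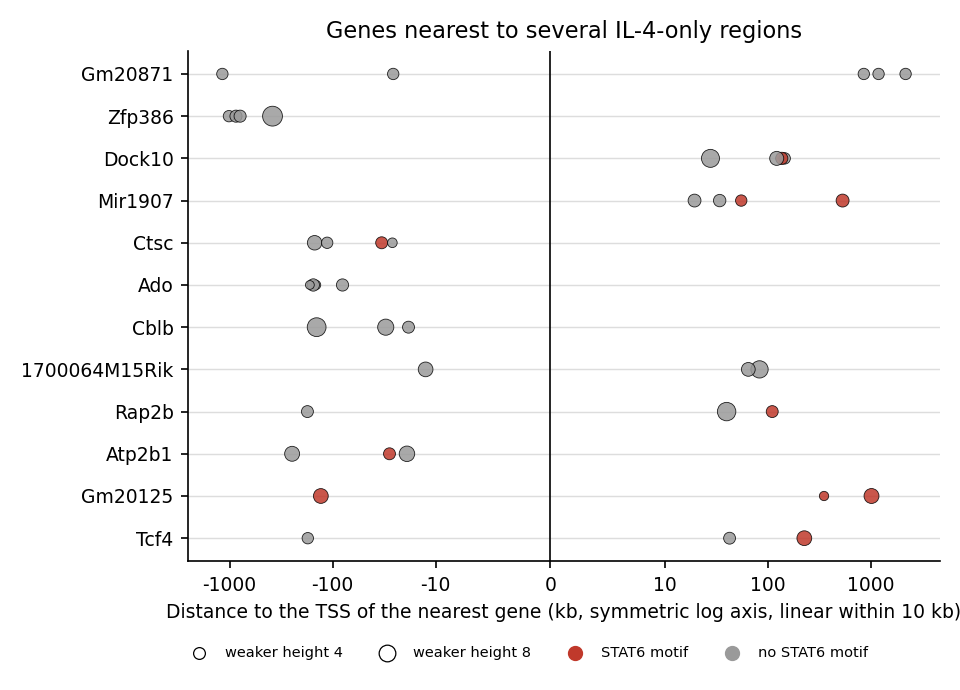
Members of the 12 named genes by distance from the TSS of the gene in kb (x axis, symmetric log scale), 1 row per gene, with marks sized by the weaker height and coloured by the STAT6 motif. The genes hold 3 to 5 members each, spread over 86.409 to 3329.989 kb.

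The genes of the IL-4 response were examined as lists, chosen with results of these data known. In 10 of 23 effectors of alternative activation a member lay within 100 kb of the gene body, and in 3 of 23 a control-only distal region did. Of all 21887 protein-coding genes, 2031 (9.28%) had a member and 3573 (16.3%) a control-only region that near. Arg1, arginase 1, had a member 25433 bp upstream with low heights of 2.45 and 2.22. The mannose receptor gene Mrc1 had one in its body (10.31 and 2.88), which the files assigned to Mir511. Pdcd1lg2, the gene of PD-L2, had one at 5.8 kb (9.67 and 7.12), and Flt1, a VEGF receptor, had 3, one of them with 13.68 and 5.85. These 4 genes had the STAT6 motif in a member shown above.

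Members without the motif in their window lay by other effectors. Ch25h, cholesterol 25-hydroxylase, had one with heights of 9.13 and 7.7. Ptgs1, cyclooxygenase 1, had one in intron 8 (10.74 and 7.68), Cdh1, E-cadherin, one in intron 2 (6.62 and 3.32) and Il31ra, a cytokine receptor, one in intron 5 (4.11 and 9.5). Of the 13 members within 100 kb of an effector gene, 5 held the motif.

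In the IL-4 receptor and signalling list, 5 of 16 genes had a member within 100 kb and 9 of 16 a control-only region. Besides Jak2 and Socs6 these were Il13ra1, a receptor chain shared by IL-4 and IL-13 (5.34 and 2.49), and the feedback inhibitors Socs2 (6.46 and 3.73) and Socs3 (3.86 and 4.24). A control peak lay 49 bp from the Il13ra1 member. Irs2, an adaptor of the receptor, was the nearest gene of a member farther away (4.11 and 3.73). Control-only regions reached more genes than members did in this list (56% and 31%), as they did over all protein-coding genes (16.3% and 9.28%).

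Among transcription factors of IL-4-treated macrophages, 6 of 13 had a member within 100 kb and 5 of 13 a control-only region. Pparg, a lipid-sensing nuclear receptor, had one in intron 5 (6.62 and 12.39) without the motif and one 88.6 kb away (6.12 and 4.55) with it. Irf4 had one at 98.6 kb (4.11 and 9.34), Batf3 at 23.0 kb (8.69 and 5.77) and Klf4 at 34.8 kb (5.34 and 2.49), where the motif fell inside the 200 bp window but outside the peak. Kdm6b, an H3K27 demethylase, had a low one (2.95 and 2.44).

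Of the macrophage lineage factors, 2 of 10 had a member within 100 kb and 4 of 10 a control-only region. Tfec, of the MiT family, had 2 in its introns (4.11 and 5.05, 7.02 and 3.61), both with the motif, and Irf8 had one 10938 bp upstream (6.62 and 5.95). A control peak lay 144 bp from the second Tfec member. Maf was the nearest gene of a member farther away, which lies within Wwox. Of 21 inflammatory genes, 2 had a member (Tlr2 with 2.95 and 5.95, Tlr4 with 5.34 and 3.73) and 7 a control-only region. Neither of those members held the motif.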

How the data were processed

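The authors aligned reads to mm10 with BWA, ran MACS2 separately for every library to find peaks, removed ENCODE blacklist regions and annotated peaks with HOMER; the submitters' processing notes give BWA 0.7.10, SAMtools 0.1.19, HOMER 4.2 and MACS2 2.0.10. The deposited values are peak scores, read as −log10 of the q-value. The methods give a stricter q threshold than the lowest scores imply, so a score of at least 2 was an alternative. Treatment of duplicates and any transposase offset are not given in the sources used here. A group-wise comparison of read counts, as the study made, needs reads and was not made.

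Regions on chromosomes 1 to 19, X and Y were merged with Python 3.11.15 and pandas 2.3.3. Motifs were matched on both strands in GRCm38.p6. Shares carry Wilson and Newcombe 95% intervals (statsmodels 0.14.6). Libraries were compared with an exact two-sided permutation test (scipy 1.17.1), and shared regions with limma 3.58.1 in R 4.3.3 (group term, no block, trend, Benjamini-Hochberg adjustment). Scripts were tested on simulated data with known answers. Members, gene lists and motifs were chosen with earlier results of these data known. Named were the 15 members with the highest weaker height, the genes with 4 or more members (filled to 12 with genes of 3 by summed weaker height), each group of 4 or more within 50 kb gaps, every listed gene nearest to a member, and the members at the thresholds. Listed genes within 100 kb, Rgs1, Mir5130, Tbc1d2b, the shared Tcf4 region and the shared Tet2 region were chosen after their values were seen.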

Additional observations from a re-analysis of the deposited data

How the results depend on the processing

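The number of members was 1027 with scores of at least 2, 968 with peaks merged over 500 bp, 892 with no control peak within 1000 bp and 852 beyond 20 kb, and the STAT6 motif share stayed between 32.4% and 33.6% under these. Leaving out 1 library loosens the rule by construction: the number ranged from 1749 (without control replicate 2) to 4074 (without IL-4 replicate 1), with 2100 and 3530 for the others, the motif share from 17.0% to 24.3%, and the genes with at least 3 members from 48 to 220, with 14 to 21 under the other alternatives. The stricter palindrome gave 5.39%. The library difference of 3.79 points ranged from 3.70 to 3.88 and that in regions of 1 library (10.0 points) from 8.09 to 11.9 with 1 library left out. limma called 6 shared regions, 8 with median centring, 7 with scores of at least 2 and 0 without the trend, where 1057 were higher and 981 lower at an unadjusted p under 0.05. With 1 library left out it called 0 to 12, with 12 without control replicate 2 and 0 without IL-4 replicate 1 or 2 (752 and 640 higher, 1141 and 994 lower unadjusted). The median change near members ranged from −0.0067 to 0.045, and its sign turned without control replicate 2. At shared distal regions with the motif the median was 0.34 with centring and 0.31 with scores of at least 2, and from 0.27 to 0.33 with 1 library left out. Alternatives outside the original plan, including those for that median, were chosen after seeing the data. The cause of these movements was not tested except where the rule's construction gives it.

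Same-numbered libraries correlated by 0.0068 in their deviations. With 2 libraries per group both pairs give the same value by construction, so whether the numbers pair the samples is not known. With the replicate number as a block, limma called 14 regions, and 7 of the 856 shared distal regions with the motif; the medians were the same. Of the members, 41 had a weaker height under 2, and the read depth behind the heights is unknown.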

Other observations

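On chromosome Y, 10 of 87 distal regions (11.5%) were IL-4-only and 1 was control-only. Of those 10 members, 8 were made mostly of repeated 32-base words, so their placement is uncertain. Of 32 distal regions in ERVB4_2-LTR_MM elements, a long terminal repeat of an endogenous retrovirus, 6 (18.8%) were members, all of them made mostly of repeated words. Of 31 in LSU-rRNA_Hsa repeats, 7 were members. Any annotated repeat was recorded for 226 members (21.4%) and for 21.9% of all distal regions.

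Peak heights recurred as exact values. In IL-4 replicate 1, 142 members had a height of 4.11, and in replicate 2, 156 had 3.73. The members took 329 and 263 different heights in the 2 libraries.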
